A study of Homo sapiens with 5 samples.

Results

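The peaks described here lie in genes of the ZNF family. They are the peaks of the Odd and Even lists whose summit, the position of highest coverage, fell between the start and end of a protein-coding gene with a symbol that begins with ZNF, ZNF335 left out. There were 16 such peaks among the 905 of the Odd list and 145 among the 8626 of the Even list, 161 of 9531 in all. The annotation held 515 such genes, and 99 of them had at least 1 peak.

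The peaks came from RIA-seq, in which a cross-linked RNA is captured with biotinylated DNA oligonucleotides complementary to it and the RNA that comes with it is sequenced. The bait was SNHG5, a long noncoding RNA that hosts small nucleolar RNAs, in HCT116, a human colorectal carcinoma cell line cross-linked in glutaraldehyde. The data comprised 2 libraries of the Odd oligonucleotide pool, 1 of the Even pool and 2 control libraries. The control is called input in the sample labels and a luciferase pool in the study's methods. The Odd list was called on both Odd libraries together and kept reproducible peaks only, and the Even list came from 1 library without that step, so that the values carry no error between replicates and no difference was tested. After removal of duplicates by MACS the Odd pool held 4904959 tags, the Even library 1965614 and the control 3986040. To compare lists of equal length, the 905 Even peaks with the smallest p, called the best Even peaks below, were also taken alone. The study's methods give 905 as the optimal number for the Even pool too, extrapolated from Odd because an Even replicate had failed. The whole Even list extends beyond that number to weaker peaks. The lists give no strand, and 7 Odd and 36 Even summits in ZNF genes also lay in another annotated gene.

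Most ZNF genes code for C2H2 zinc finger proteins, in which each finger holds a zinc ion between a pair of cysteines and a pair of histidines and can read a short stretch of DNA. The fingers usually stand in a tandem array that is coded by the last, long exon and joined by a conserved linker of threonine, glycine, glutamate, lysine and proline. Many of these genes lie in clusters on chromosome 19, and many of their proteins carry a KRAB domain that recruits the corepressor TRIM28 to silence transposable elements.

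The sequences that the results turn on are given first, in the sense of each gene, 5′ to 3′, on hg19 as read from the GRCh37 reference. ZNF652 is on the minus strand of chromosome 17, from 47366568 to 47439835, and carries in its first intron a stretch closely similar to spliced SNHG5. The first line shows 30 bases at chr17:47416919-47416948 that are identical to positions 273 to 302 of the 451-nt annotated SNHG5 transcript. They lie 6 bases from the summit of the Odd peak there, and all are in capitals. The next pair sets positions 37 to 66 of SNHG5 beside chr17:47417142-47417171, with the 6 bases that differ in capitals.
ZNF652 and SNHG5, identical stretch: TGAGGGTCGCTGTCTGCCCATTGATAGAGG
SNHG5, differing stretch: GcgtCtggGcgGgtggTaggaacaatggcG
ZNF652, differing stretch: TcgtTtggTcgTgtggCaggaacaatggcT

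Outside ZNF652 the longest run shared with SNHG5 was short. Within 250 bases of a summit it was longest, at 15 and 14 bases, in ZNF875 (chr19:37854273-37854302, plus strand) and in ZNF445 (chr3:44481455-44481484, minus strand). In ZNF337 (chr20:25655755-25655784, minus strand) it was 12 bases. ZNF749 (chr19:57947176-57947205, plus strand) and ZNF837 (chr19:58880717-58880746, minus strand), which had the smallest p of any ZNF peak of their list outside ZNF652, shared 9 and 8 bases. Capitals mark the run identical to SNHG5.
ZNF875: gtatgtgCTGAGTGTGGACGAGgctttaat
ZNF445: atctggacAAGCTGATAAGAAAgcccagcc
ZNF337: gaatgccaaGAGTGTGGACGAaagtttagc
ZNF749: ctggggagccCGAGCGTCTttgtctccaag
ZNF837: tcttctctgctCTTCCAGAtcctacaacca

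The last set shows the DNA that codes for the linker between fingers, in Even peaks of ZNF875 (chr19:37854163-37854192, plus strand), ZNF761 (chr19:53959722-53959751, plus strand) and ZNF721 (chr4:436161-436190, minus strand). Capitals mark the word ACNGGNGANAANCC, which covers all codons of the linker.
ZNF875, linker: ggtcacacACGGGGGAGAAGCCatttgtat
ZNF761, linker: gaattcatACTGGAGAGAAACCttacaagt
ZNF721, linker: aaattcatACTGGAGAAAAACCttacaaat

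A smaller share of ZNF genes than of all protein-coding genes had a peak. In the Odd list 10 of the 515 genes (1.94%) had a summit, against 3.44% of all 20176 protein-coding genes. In the Even list 96 (18.6%) did, against 21.6%, and among the best Even peaks 12 (2.33%) did, against 3.19%. The direction depended on the scaling. ZNF genes made up 1.59% of the span of protein-coding genes. Per Mb of gene span there were 0.729 Odd peaks in ZNF genes, 0.503 without ZNF652, against 0.566 in all protein-coding genes. For Even the values were 6.61, 5.85 and 4.89, and for the best Even peaks 0.729, 0.549 and 0.534. Per Mb of exon, exonic peaks in ZNF genes were below those in all protein-coding genes, with 3.39 against 5.24 for Odd and 25.2 against 32.9 for Even. Of the 96 genes with an Even peak, most had a single one, and 10 genes besides ZNF652 had at least 3 Even peaks. ZNF280C, ZNF609, ZNF638 and ZNFX1 had 4 each, and ZNF131, ZNF407, ZNF462, ZNF578, ZNF704 and ZNF845 had 3 each. None of these 10 had an Odd peak.

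ZNF652, a C2H2 repressor, held 5 of the 16 Odd peaks and 17 of the 145 Even peaks, more than any other ZNF gene. Its first intron is 43.9 kb of the 73.3-kb gene, and all 22 summits lay in it. Alignment of the SNHG5 transcript to the whole reference gave 7 matches at an expectation value below 1e-10. Of these, 6 were the exons of SNHG5 itself on chromosome 6 and 1 was in ZNF652, at 47416769 to 47417192 on the minus strand, with 0 elsewhere. This intronic copy matched positions 16 to 451 of the transcript without its introns, with 91.6% identity over 439 alignment columns. It read in the same direction as ZNF652.

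The peaks on the copy had by far the highest coverage of any ZNF peak and among the lowest enrichment. The Odd peak at 47416555 to 47419425 had a pileup, the coverage of extended tags at the summit, of 1501 and a fold enrichment over the control of 1.63, with a −log10 p of 68.45. The Even peak at 47415405 to 47419505 had a pileup of 1938, a fold enrichment of 2.59 and a −log10 p of 286.01. By pileup they ranked 3rd in the Odd list and 14th in the Even list. The limit that MACS sets on duplicate tags allows at most 1560 and 2352, so the Odd peak was near the ceiling and the Even peak further below it. Dividing pileup by fold gave a control background of 921 for the Odd and 748 for the Even peak, where the list medians were 3.69 and 0.715.

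The bait's own highest peaks reached similar pileups, under the same limits of 1560 and 2352. So near a ceiling, a likeness in pileup cannot show a likeness in coverage. At SNHG5 on chromosome 6 the highest pileup was 1553 in the Odd list, with a fold of 1.65 and a control background of 941. In the Even list it was 2200, with a fold of 7.1 and a background of 310. The copy and SNHG5 shared runs of up to 99 bases without a difference, and 62 of the 404 words of 48 bases in the SNHG5 transcript (15.3%) occurred unchanged in the copy. A read of that length from such a stretch fits both places. Whether reads of SNHG5 contributed to the coverage on the copy was not tested.

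The other 20 peaks of ZNF652 lay to both sides of the copy, 13 toward the start of the gene and 7 toward its end. They reached 21.5 kb and 14.6 kb from it and left the last 35.6 kb of the gene without a peak. Their longest run shared with SNHG5 was 7 to 11 bases, within the range of the other ZNF peaks. The 4 Odd ones had pileups of 27 to 47 and folds of 19.1 to 49.64. The 16 Even ones had pileups of 6 to 58 and folds of 8.11 to 73.81, with a median of 17.6. Each of the 4 Odd peaks had an Even peak with a summit within 104 bases. The pair nearest the start of the gene had folds of 49.64 for Odd and 73.81 for Even, and the next 19.1 and 67.6. The pair 5.3 kb upstream of the copy had 29.24 and 46.62, and the pair downstream 29.26 and 33.56. Whether these intronic peaks are related to the copy was not tested. The study's methods treat intron peaks as likely errors of the peak shift and remove them at a later step, but the deposited lists still hold them. In all, 85 of the 161 ZNF peaks (52.8%), with all 22 of ZNF652, had an intronic summit, and 76 did not.

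The peaks of both pools were compared by overlap. Of the 16 Odd ZNF peaks, 6 (37.5%, 95% Wilson interval 18.5 to 61.4%, counting error only) were overlapped by a best Even peak, against 13.1% of all Odd peaks and 11.4% of those in other protein-coding genes. Any Even peak overlapped 11 of the 16 (68.8%), against 39.8% of all Odd peaks. ZNF652 supplied 4 of the 6 and 5 of the 11. Without it 2 of 11 (18.2%, 5.14 to 47.7%) were overlapped by a best Even peak, an interval that includes the share of all Odd peaks, and 6 of 11 (54.5%) by any Even peak.

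From the Even side, 6 of the 16 best Even ZNF peaks were overlapped by an Odd peak, against 13.3% of all best Even peaks. Without ZNF652 it was 2 of 12 (16.7%). Of all 145 Even ZNF peaks, 12 (8.28%) were overlapped, against 4.32% of the Even list. Without ZNF652 it was 6 of 128 (4.69%, 2.17 to 9.85%). A peak in both lists, not always at the same place, was found in 7 ZNF genes (1.36%), against 2.3% of all protein-coding genes. They were ZNF652, ZNF749, ZNF445, ZNF318, ZNF451, ZNF622 and ZNF786. With the best Even peaks only ZNF652, ZNF749 and ZNF445 remained.

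ZNF749, on chromosome 19 from 57946693 to 57958469, had the most significant Odd peak of the family and was recovered at 2 places by both pools. At its first exon the Odd peak had a pileup of 300 and a fold of 81.27 and the Even peak a pileup of 111 and a fold of 37.18. The summits were 17 bases apart, the Odd one at residue 5 of the protein and the Even one just before the start codon. In an intron the Odd fold was 17.07 and the Even fold 8.11, with summits 1 base apart. Both places also lay in unnamed genes of the annotation.

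ZNF445, a KRAB zinc finger protein that maintains genomic imprinting, had its 2 Odd peaks in a 3′ UTR of 14873 nt. The peak 1670 nt after the stop codon had a fold of 21.33 in Odd and 10.65 in Even, with summits 1 base apart. The stronger Odd peak, 6647 nt after the stop codon, had a pileup of 311 and a fold of 50.55 and no Even peak, the nearest being the one just named, 3.76 kb away. It held the 14-base run shown above. A run of at least 14 bases was found in 7.98% of the Odd peaks and in 1.83% of the Even peaks in other protein-coding genes.

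ZNF622, a factor in the maturation of the large ribosomal subunit, had a coding peak with a fold of 29.12 in Odd and 4.92 in Even, with summits 2 bases apart. ZNF318 had a coding peak with folds of 13.82 and 5.24. ZNF786 had a peak across its stop codon with folds of 23.57 and 13.18. In all 6 shared peaks outside ZNF652 the fold was higher in Odd, and in all 5 pairs of ZNF652, each Odd peak taken with the Even peak of nearest summit, it was higher in Even. A further Even peak that overlapped the ZNF652 Odd peak with a fold of 49.64 had a fold of 10.14. The libraries differ in depth and in how the lists were made, so that a difference in fold between lists has no test here.

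The remaining Odd ZNF peaks had no overlapping Even peak. ZNF451, a SUMO ligase, had a fold of 43.21 in its 3′ UTR 46 nt after the stop codon, and its Even peak, with a fold of 5.24, lay 63.7 kb away. ZNF655 had a fold of 13.0, ZNF573 7.16 and ZNF777 5.63. The weakest 2 of these were also among the 3 lowest folds of the 16.

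**Figure D1:**
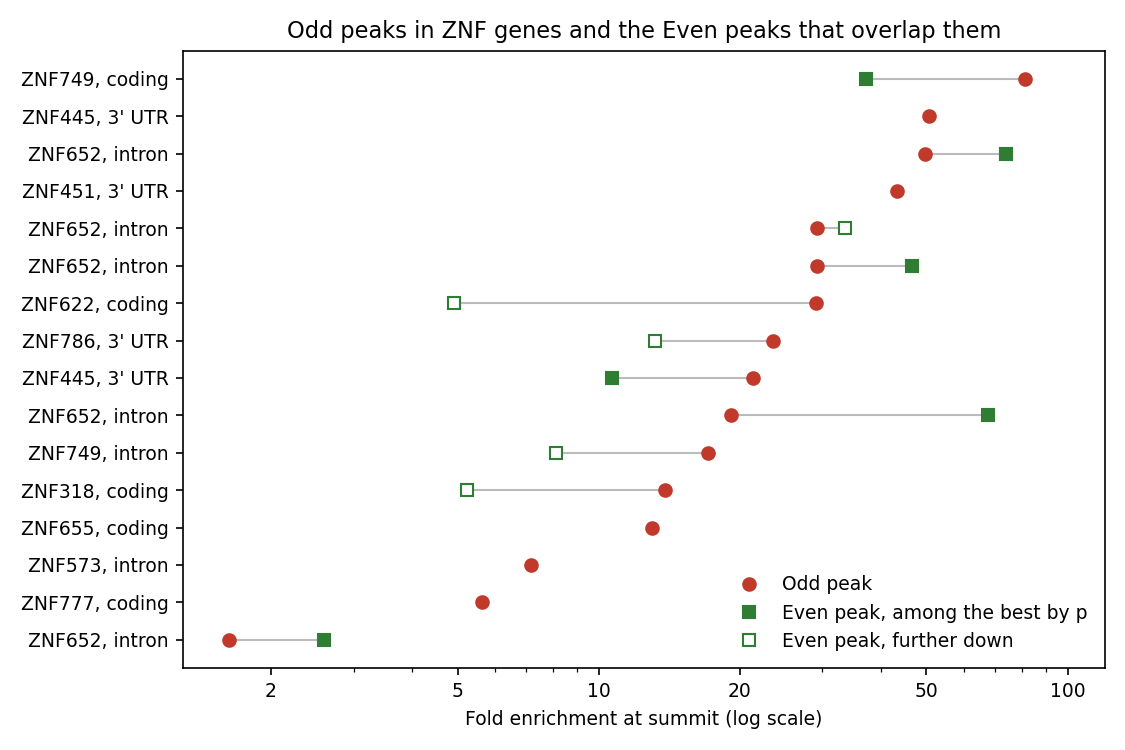
Fold enrichment, on a log scale, of the 16 Odd peaks in ZNF genes (circles) and of the Even peak with the nearest summit where 1 overlapped (squares, filled where it is among the 905 best Even peaks), with gene and transcript region at the Odd summit. The 6 pairs outside ZNF652 have the circle to the right and the 5 pairs of ZNF652 the square to the right.

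Outside ZNF652, ZNF749 and ZNF445, no best Even ZNF peak was overlapped by an Odd peak. ZNF837 had a fold of 217.88, the highest of the family, from a pileup of 93 in its coding sequence. ZNF131, a BTB zinc finger protein, had 54.94 in an intron, and ZNF704 had 85.26 in an intron from a pileup of only 36. ZNF697 and ZNF407, which were not among the best Even peaks and had no overlapping Odd peak either, reached 66.31 each in introns from pileups of 28. ZNF337 had 30.3 and ZNF875 21.15, both in the finger array. ZNFX1, an antiviral helicase with a different type of zinc finger, had coding peaks of 33.46 and 16.73. ZNF638, which takes part in silencing of unintegrated retroviral DNA, had 22.98, ZNF558 had 23.31 and ZNF761 19.9. High folds at these pileups arose where the control background was low, as for ZNF837, ZNF704, ZNF697 and ZNF407.

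The median fold of ZNF peaks was near that of other genes, whereas the medians of pileup and p differed by list. The median fold was 22.4 for the 16 Odd ZNF peaks and 19.5 for the Odd peaks in other protein-coding genes. For Even it was 10.5 against 9.47, and among the best Even peaks 31.9 against 29.7, or 26.8 without ZNF652. Among the best Even peaks the median pileup was 71.5 for ZNF genes and 117 for others, with a median −log10 p of 72.2 against 97.9. In the Odd list without ZNF652 the median pileup was 105 against 75, and the median −log10 p 89.1 against 59.5. The Even ZNF peaks ranged widely in p, from a −log10 p of 3.2 to 286.01 with a median of 9.03. Their median pileup was 12, whereas the lowest Odd ZNF pileup was 27. No Odd ZNF window was mostly repeated in the genome, and in 3 of the 145 Even windows (2.07%) at least 50% of the 48-base words occurred again elsewhere, against 3.18% in other genes. These were 1 window of ZNF343 and 2 of ZNF84.

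In the Even list the share of ZNF peaks on chromosome 19 was below the share of ZNF genes there. The chromosome held 249 of the 515 ZNF genes (48.3%), 36.2% of their span and 46.1% of their exon length. It held 3 of the 16 Odd ZNF peaks (18.8%, 6.59 to 43.0%), 38 of the 145 Even ones (26.2%, 19.7 to 33.9%) and 5 of the 16 best Even ones (31.2%). Without ZNF652 the Even share was 29.7% (22.5 to 38.1%), an interval that includes the 36.2% of span but not the 48.3% of genes. The Odd share was then 27.3% (9.75 to 56.6%) and the best Even share 41.7% (19.3 to 68.0%), both with intervals that include the share of genes. These intervals take peaks as independent, although some genes supplied several. With 1 peak per gene, ZNF652 included, the Even share was 29 of 94 (30.9%). Peaks in other protein-coding genes lay on chromosome 19 in 3.67% for Odd and 2.54% for Even. Of the ZNF genes on chromosome 19, 12.4% had an Even peak, and of those on other chromosomes 24.4% did. For the best Even peaks these shares were 2.01% and 2.63%.

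Most of these genes stand close together. Joining ZNF genes less than 250 kb apart gave 12 groups of at least 5 genes on chromosome 19, with 233 genes, 3 Odd peaks and 34 Even peaks. The largest group, 43 genes near the end of the long arm, held 2 Odd peaks, both of ZNF749, and 4 Even peaks. The next, 40 genes between 52.1 and 54.1 Mb, held 15 Even peaks in 11 genes and no Odd peak. A group of 26 genes between 11.6 and 12.8 Mb had no peak in either list. The lists hold no expression level, so that the part of expression in these counts was not tested.

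Per length of exon, in the Odd and the whole Even list, the ZNF genes of other chromosomes without ZNF652 were close to genes in general, and those of chromosome 19 lay below. Even peaks with an exonic summit numbered 19.6 per Mb of exon for ZNF genes on chromosome 19, 30.3 for those elsewhere without ZNF652, and 32.9 for all protein-coding genes. For Odd the values were 0.817, 5.64 and 5.24, the first from a single peak. Among the best Even peaks the ZNF genes of chromosome 19 and elsewhere were alike, at 3.27 and 3.52 per Mb of exon, both below the 4.46 of all protein-coding genes. Even intron peaks numbered 2.08, 3.76 and 3.11 per Mb of intron.

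**Figure D2:**
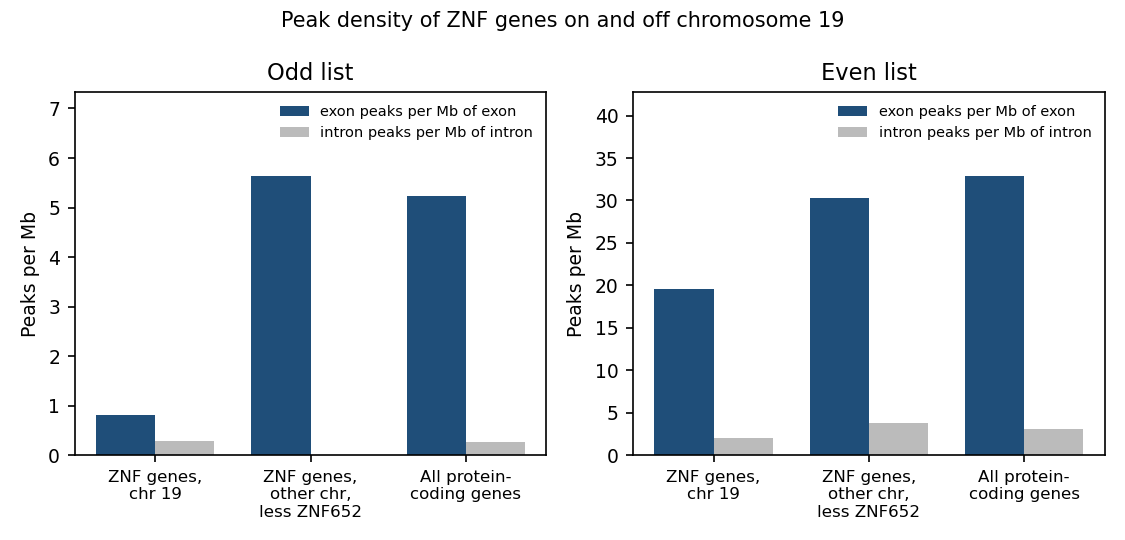
Peaks with an exonic summit per Mb of exon (dark bars) and with an intronic summit per Mb of intron (light bars), for ZNF genes on chromosome 19, ZNF genes on other chromosomes without ZNF652, and all protein-coding genes, in the Odd list (left) and Even list (right). The dark bars of chromosome 19, 0.817 for Odd and 19.6 for Even, are the lowest in each panel.

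Within the transcripts, coding sequence held the largest share of exonic ZNF peaks, as it did in other genes. Of the 16 Odd summits 5 were coding, 4 lay in a 3′ UTR and 7 in an intron, 5 of these in ZNF652. In shares these were 31.2% coding, 25.0% 3′ UTR and 43.8% intron, against 36.8% coding, 122 of 763 in a 3′ UTR and 44.6% intronic in other protein-coding genes, and without ZNF652 the coding share was 45.5%. Of the 145 Even summits 51 were coding (35.2%, 27.9 to 43.2%), 11 lay in a 3′ UTR, 5 in a 5′ UTR and 78 in an intron, 17 of these in ZNF652. In other protein-coding genes 26.8% of Even summits were coding and 59.8% intronic, and without ZNF652 the ZNF values were 39.8% and 47.7%. Among summits in coding sequence or a UTR, coding held 5 of 9 for Odd (26.7 to 81.1%) and 51 of 67 for Even (76.1%, 64.7 to 84.7%). Both intervals include the share in other genes, 66.7% for Odd and 66.6% for Even. Coding sequence made up 45.0% of the exon length of ZNF genes.

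The zinc finger array was searched in the translated coding sequence as repeats of the C2H2 spacing, and the array was counted from the first to the last repeat. Only transcripts whose coding sequence held the summit were searched. Of the 51 Even coding summits 28 lay in the array (54.9%, 41.4 to 67.7%), 12 before it and 5 after it. The other 6 lay in coding sequences without the pattern. The array made up 55.6% of the coding length of all ZNF genes and 54.0% of that of ZNF genes with an Even peak, both within the interval of the share of summits. In 34 of the 51 the exon coded for at least 1 whole finger, and 19 summits lay inside a finger. Of the 5 Odd coding summits 1 lay in an array, that of ZNF622, whose 3 fingers are far apart, and 0 lay inside a finger. On chromosome 19, 12 of the 16 Even coding summits were in the array, and on other chromosomes 16 of 35. The array share of coding length was not computed by chromosome, so that these counts have no expected share beside them. Both groups hold summits in coding sequences without the pattern, of ZNF814 on chromosome 19 and of ZNFX1 and ZNF185 elsewhere. For ZNF814 this was a product of 113 residues, and transcripts of the gene that do not code at the summit were not searched.

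In ZNF875 the Even summit was in finger 8 of 13 and in ZNF337 in finger 18 of 19. In ZNF721 it was in finger 16 of 23, with a fold of 6.95, and in ZNF845 one of the coding summits was in finger 22 of 26, with a fold of 7.1. ZNF837 differed, with its summit at residue 47 of 531, well before the first finger at residue 273. ZNF638 has 2 repeats, at the far ends of residues 428 to 1952, so that its summit at residue 1900 counts as in the array without being near tandem fingers.

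The linker word lay within 250 bases of the summit, on the sense strand, in 22 of the 145 Even ZNF peaks (15.2%, 10.2 to 21.9%) and in 19 of the 51 coding ones (37.3%). None of the 16 Odd ZNF peaks had it. On either strand, 29 of all 8411 Even peaks on the reference chromosomes (0.345%) and 0 of 891 Odd peaks had it. In other protein-coding genes it was in 3 of 6364 Even windows (0.0471%) on the sense strand. Because the word codes for the linker of C2H2 arrays, this difference is set by the choice of genes and is no result about the peaks. No expected share for ZNF coding sequence was computed. In the Odd list a count of 0 of 16 still allows up to 19.4% by the Wilson interval. Only 5 of these 16 summits were coding, and 0 of 5 allows up to 43.4%.

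Other C2H2 families were taken by symbol. Genes with a symbol that begins with ZBTB had an Odd peak in 3 of 42 (7.14%) and an Even peak in 10 (23.8%). A peak in both lists, not always at the same place, was found in 3 of the 42 (7.14%), against 2.3% of all protein-coding genes. In ZFP, ZSCAN and ZKSCAN genes that count was 0. The 42 genes include ZBTB8OS, which is named for its place opposite ZBTB8 genes and codes for no such protein. Without it the Odd and Even counts were 3 (7.32%) and 9 (22.0%) of 41, genes whose fingers follow a BTB domain. The ZBTB43 3′ UTR had a fold of 80.09 in Odd and 24.77 in Even at the same place. ZBTB20 had many Even peaks, most of them in its 3′ UTR, and no Odd peak. The Even peak with the smallest p had a fold of 212.28 and the next 6.22, both in the 3′ UTR. Of 21 ZSCAN genes 1 had an Odd peak (4.76%) and 4 an Even peak. The counts were 0 and 3 (13.6%) of 22 for ZFP and 0 and 1 (12.5%) of 8 for ZKSCAN, against 3.44% and 21.6% of all protein-coding genes.

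The KRAB corepressors and their partners were taken as the 14 genes TRIM28, SETDB1, ATF7IP, CBX1, CBX3, CBX5, CHD3, CHD4, HDAC1, HDAC2, MORC2, TASOR, MPHOSPH8 and PPHLN1. Of these, 4 had an Even peak (28.6%, near the 21.6% of all protein-coding genes), 3 a best Even peak (21.4%, against 3.19%) and 0 an Odd peak (against 3.44%). So short a list leaves these shares imprecise. CBX1, a heterochromatin protein, had a fold of 67.3 in its 5′ UTR. PPHLN1, a HUSH subunit, had 8.54 and the deacetylase HDAC1 7.65, both in introns. These 3 were among the best Even peaks, and CHD4, a NuRD helicase, had 1.79 in its 3′ UTR. TRIM28 itself had no peak.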

How the data were processed

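RNA captured with SNHG5 oligonucleotides from HCT116 cells was sequenced by the authors, trimmed with cutadapt, mapped to hg19 with STAR, and peaks were called with MACS 2.0.9, with the pooled control as background and a p threshold of 0.001. The number of reproducible Odd peaks was estimated by IDR from both Odd libraries and extrapolated to Even. The deposited Even list was not cut to that number. The pileup in the deposited lists is a coverage signal at the summit, the deposited fold enrichment is its ratio to the local control background, and the deposited −log10 p-value was used here to rank peaks. The methods describe a later removal of intron peaks, which the deposited lists still hold, and they were kept here. The q columns were not used. A sequence of 1 member is not reported here. No value per library was given, and 0 columns belonged to other samples.

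Kept tags were 4904959 for Odd and 1965614 for Even. The Even pileup was scaled by 2.03, so weak Even peaks rest on few tags.

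Genes and regions came from GENCODE 44 mapped to GRCh37, later than the study. The region at a summit was taken over basic transcripts as coding, then UTR, then intron, and 14 Odd and 215 Even peaks lay off the reference chromosomes. No peak ran past a chromosome end. Shares are given with 95% Wilson intervals. Words and runs were searched in 501-bp windows, and SNHG5 was aligned with blastn 2.17.0. Python 3.11.15, pandas 2.3.3, scipy 1.17.1, pysam 0.24.0, Biopython 1.88, samtools 1.23.1 and matplotlib 3.10.9 were used. Region classes, overlaps, finger searches and word counts were tested on simulated data.

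Named are SNHG5, ZNF genes with an Odd peak overlapped by a best Even peak, those of the 10 smallest p and 5 largest folds per list, those with at least 3 peaks, and corepressor genes with a peak. Other genes in the text were picked with their values known. The members and gene lists were chosen with earlier results of these data known.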

Additional observations from a re-analysis of the deposited data

How the results depend on the processing

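No paired analysis was possible because the peak lists hold no value per replicate, and no library could be left out for the same reason. Of 39 alternative values for 13 results, 28 stayed within the interval of the main value or, for counts, within 1.5 times of it. Counting only summits in an exon left 9 Odd and 67 Even ZNF peaks. With the best Even peaks alone there were 16 Even ZNF peaks and 3 genes in both lists, 43.8% of the Even ZNF peaks were coding and their median fold was 31.9. The share of Odd ZNF peaks overlapped by Even was 68.8% with all Even peaks and 12.5% with the best 500. Without ZNF652, an alternative chosen after seeing the data, it was 18.2%, and the share of best Even ZNF peaks overlapped by Odd was 16.7%. With the strict finger spacing 0.0% of the Odd coding summits lay in the array. Few Odd members and the shallow single Even library limit all shares.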
